A study of Mus musculus with 6 samples.

Results

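The 10 genes described here mark macrophages and other white blood cells, and they were read as rows of an expression table of the mouse submandibular gland. They are Lyz2, Csf1r, C1qa, C1qb, C1qc, Cd68, Tyrobp, Fcer1g, Ptprc and Coro1a, chosen by symbol, and all 10 were found among the 23366 genes of the table. RNA-seq was done on epithelial cells isolated from the submandibular salivary glands of adult mice aged 12 weeks, with 3 libraries of the p63 knockout and 3 of wild type. The labels do not name a Cre driver, the deleted exons, or how many mice went into a library. Values are TPM, a transcript abundance corrected for gene length and scaled to 1000000 per library, so levels can be set side by side between genes of a library. Between libraries they are shares of a fixed total, and so depend also on how much of it the most abundant genes take.

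Macrophages live in every gland as resident cells that take up dying cells, and they are kept alive by signals through the CSF1 receptor. They secrete lysozyme and the 3 chains of C1q, the recognition protein of the classical complement pathway. Several of their activating receptors signal through small adaptor proteins with an activation motif (ITAM), among them the products of Tyrobp and Fcer1g, while others carry a signalling motif of their own. Ptprc (CD45) and Coro1a are made by nearly all white blood cells.

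In the deposited libraries between 10634 and 11235 genes reached 1 TPM, and the 50 most abundant genes of a library took 69.2% to 80.3% of its TPM. Knockout library 3 held the lowest gene number and the highest share. Trp63, the gene of p63, a transcription factor of basal epithelial cells, measured 1.59, 0.816 and 1.76 TPM in knockout libraries 1, 2 and 3, against 3.48, 1.85 and 3.68 TPM in wild-type libraries 1, 2 and 3 (limma adjusted p = 0.27). Epithelial markers were abundant in every library: the 12 listed genes, Epcam, Cdh1 and several keratins among them, summed to 1024 to 2155 TPM in the knockout against 1369 to 1567 TPM in wild type. The 10 white blood cell markers together summed to 180 to 200.4 TPM in the knockout against 285 to 301 TPM in wild type. These are bulk libraries, so fewer cells of a type and less RNA per cell cannot be told apart.

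All 10 markers were lower on average in the knockout, but unequally so. Coro1a stood at 37.1% of its wild-type mean, Lyz2 at 46.3%, Csf1r at 48.1% and Ptprc at 54.2%, while C1qa stood at 91.6% and C1qb at 84.9%. For 7 of the 10 every knockout library lay under every wild-type library, as was so for 15.6% of the 11268 genes tested. The median log2 fold change on the log2(TPM + 1) scale was -0.59 over the 10 markers and 0.09 over all genes tested. Negative values were found for 10 of 10 markers and 42.6% of all genes. None of the 10 passed limma's test with Benjamini-Hochberg adjustment over all genes, where 0.319% of genes passed as lower. At an unadjusted p of 0.05, 5 markers were lower (Lyz2, Coro1a, Csf1r, Tyrobp and Ptprc) and 0 higher, against 10.5% of all genes lower.

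**Figure D1:**
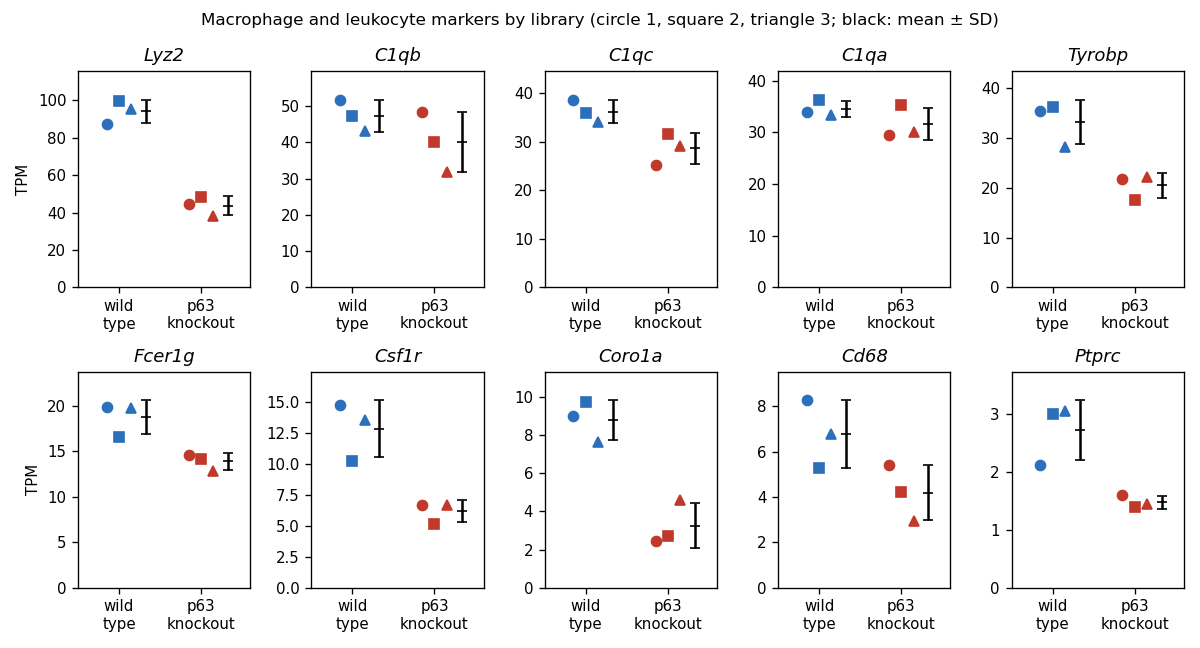
TPM of each of the 10 markers (y axis, starting at 0) in the 3 wild-type (blue) and 3 knockout (red) libraries, with circle, square and triangle for libraries 1, 2 and 3 and the mean ± SD in black. The groups are apart for 7 genes and overlap for C1qa, C1qb and Cd68.

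To show what the upstream sequences of these genes have in common, windows of the 250 bases before the transcription start were taken from RefSeq on GRCm38.p6 (the expression values rest on mm9). Windows on the chromosome of Csf1r were left out, both from the search and from the windows compared. In the rest, windows were found for 7 of the 10 markers. PU.1 and other ETS factors bind a GGAA core, so AGGAAGT was searched on both strands (ACTTCCT on the other), together with TGAGTCA, the palindrome-like element of AP-1 factors (TGACTCA on the other strand); the pair of motifs share no overlap in the windows shown. AGGAAGT occurred in the windows of 4 of the 7 (Lyz2, C1qb, C1qc and Ptprc) and in 7.69% of 32851 windows compared. TGAGTCA occurred in 1 of the 7, Cd68, at 2 places, and in 4.46% of the windows compared. The 7 markers had 9 windows, and both percentages count windows, so they are not in the same unit as the counts of markers. A match is only a run of letters, and neither Fcer1g nor Coro1a held either motif. Of the 6 windows with a match, 5 are printed, 1 a gene, and the sixth, that of the second Ptprc start, holds AGGAAGT 237 bases before it. They are shown 5′ to 3′ on the strand of the gene, with the motifs in capitals. They are, in this order, chr10:117282273-117282522, chr4:136886201-136886450, chr4:136892915-136893164, chr1:138175306-138175555 (the farther upstream of the 2 listed starts of Ptprc) and chr11:69666171-69666420, all on the minus strand.
Lyz2: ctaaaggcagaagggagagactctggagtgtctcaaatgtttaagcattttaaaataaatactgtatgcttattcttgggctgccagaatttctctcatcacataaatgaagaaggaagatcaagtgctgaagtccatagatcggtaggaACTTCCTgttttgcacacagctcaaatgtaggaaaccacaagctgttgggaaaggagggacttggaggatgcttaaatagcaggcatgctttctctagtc
C1qb: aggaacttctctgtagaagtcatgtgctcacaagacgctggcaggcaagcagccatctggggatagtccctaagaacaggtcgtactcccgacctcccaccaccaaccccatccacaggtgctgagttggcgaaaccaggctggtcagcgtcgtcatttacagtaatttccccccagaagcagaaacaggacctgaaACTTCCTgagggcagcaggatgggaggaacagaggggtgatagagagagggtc
C1qc: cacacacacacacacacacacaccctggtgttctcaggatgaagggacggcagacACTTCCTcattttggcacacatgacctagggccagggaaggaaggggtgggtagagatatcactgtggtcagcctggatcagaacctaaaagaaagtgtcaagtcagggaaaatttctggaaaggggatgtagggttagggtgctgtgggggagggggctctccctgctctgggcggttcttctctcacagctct
Ptprc: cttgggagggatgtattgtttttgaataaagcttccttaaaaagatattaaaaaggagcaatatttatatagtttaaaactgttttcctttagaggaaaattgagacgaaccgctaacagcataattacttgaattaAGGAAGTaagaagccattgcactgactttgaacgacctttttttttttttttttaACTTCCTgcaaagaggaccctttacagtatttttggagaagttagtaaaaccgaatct
Cd68: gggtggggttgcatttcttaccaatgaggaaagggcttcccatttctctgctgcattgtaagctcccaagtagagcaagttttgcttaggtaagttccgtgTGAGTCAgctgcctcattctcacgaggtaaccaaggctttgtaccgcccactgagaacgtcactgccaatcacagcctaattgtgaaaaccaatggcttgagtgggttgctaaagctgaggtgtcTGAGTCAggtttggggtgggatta
In Lyz2 the motif begins 100 bases before the start, and in the Lyz1 window, which is identical to that of Lyz2 at 60.8% of positions, it begins at the same distance. The motif of C1qb begins 53 bases and that of C1qc 195 bases before the start.

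Lysozyme M, encoded by Lyz2, is the enzyme that macrophages and neutrophils secrete to cut bacterial cell walls, and its gene was the most abundant of the 10 in both groups. Lyz2 measured 44.5, 48.3 and 38.3 TPM in knockout libraries 1, 2 and 3 and 87.6, 99.6 and 95.5 TPM in wild-type libraries 1, 2 and 3. The knockout libraries lay close together, and all were far below the lowest wild-type library. The log2 fold change was -1.10 (SE 0.19, limma adjusted p = 0.059), and it had the smallest adjusted p of the 10. Lyz2 passed in 4 of 18 alternative analyses, at an adjusted p of 0.047 with median-of-ratios scaling (0.515% of all genes passing as lower), and of 0.046 after rescaling without the 50 most abundant genes (0.704%). The other two were array weights and the fit without knockout library 3. Its copy Lyz1, the lysozyme of intestinal Paneth cells, was also lower at 11.7, 7.15 and 4.58 TPM against 13.7, 16.8 and 17.4 TPM (log2 fold change -1.02, SE 0.32, adjusted p = 0.21). Of the 50-base words of the Lyz2 transcript, 15.4% also occur in the Lyz1 transcript, so reads there could be given to either gene. The ratio of Lyz2 to Lyz1 was 3.81, 6.76 and 8.35 in the knockout and 6.37, 5.93 and 5.50 in wild type, with overlapping groups (exact two-sided permutation p = 1).

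Csf1r encodes the receptor for the growth factors CSF1 and IL-34 and is restricted largely to monocytes and macrophages. It stood at 6.71, 5.15 and 6.71 TPM in the knockout against 14.8, 10.3 and 13.6 TPM in wild type. Wild-type library 2 had the lowest value of its group and still lay above all knockout libraries. The log2 fold change was -0.94 (SE 0.24, adjusted p = 0.12). Some 15.1% of the exon bases of Csf1r overlap exons of Hmgxb3 on the opposite strand. Whether the counting used strand is not given in the sources used here. Hmgxb3 measured 4.401 to 6.73 TPM in the knockout against 4.46 to 5.31 TPM in wild type.

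The ligands of the receptor differed less between the groups than the receptor did. Csf1 had a log2 fold change of -0.29 (SE 0.22, adjusted p = 0.51) and Il34 one of -0.24 (SE 0.32, adjusted p = 0.69). The list of CSF1 receptor partners and transcription factors of macrophages had 12 of 14 genes tested. In it 0 passed in limma's test, 4 were lower and 0 higher at an unadjusted p of 0.05, and the median log2 fold change was -0.26. Over all genes tested 10.5% were lower at that p, the share to set beside this list and those below. Maf, a transcription factor of mature tissue macrophages that other cell types use too, stood at 3.05, 1.93 and 7.19 TPM against 29.04, 13.2 and 21.8 TPM (log2 fold change -2.21, SE 0.44, adjusted p = 0.075). Irf8, a factor of the monocyte and dendritic cell lineages, had a log2 fold change of -1.09 (SE 0.20, adjusted p = 0.068). By contrast the gene of PU.1, the master factor of the myeloid lineage, listed in the table as Sfpi1, stood at 2.05 ± 0.13 TPM in the knockout against 2.42 ± 0.62 TPM in wild type (SD, n = 3 each, adjusted p = 0.70). Cebpb lay on the other side, at 60.3, 32.8 and 6.98 TPM in the knockout against 9.40, 5.99 and 12.0 TPM in wild type (adjusted p = 0.37), with knockout library 3 inside the wild-type range.

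C1qa, C1qb and C1qc encode the A, B and C chains that join in equal numbers to form C1q, and they were the markers with the smallest differences. C1qa measured 29.5, 35.3 and 30.1 TPM in the knockout against 33.9, 36.4 and 33.4 TPM in wild type, with overlapping groups. Its log2 fold change was -0.13, with a 95% interval from -0.56 to 0.31 (adjusted p = 0.72). C1qb measured 48.4, 40.0 and 31.9 TPM in the knockout against 51.7, 47.1 and 43.0 TPM in wild type. The C1qb interval ran from -0.76 to 0.26 around -0.25 (adjusted p = 0.56). The third chain, C1qc, stood at 25.2, 31.6 and 29.1 TPM against 38.7, 35.8 and 34.1 TPM, without overlap. For C1qc the interval ran from -0.78 to 0.11 around -0.33 (adjusted p = 0.41). The intervals of all 3 chains include 0 but also reach past a log2 change of -0.5, so equal levels are not shown.

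**Figure D2:**
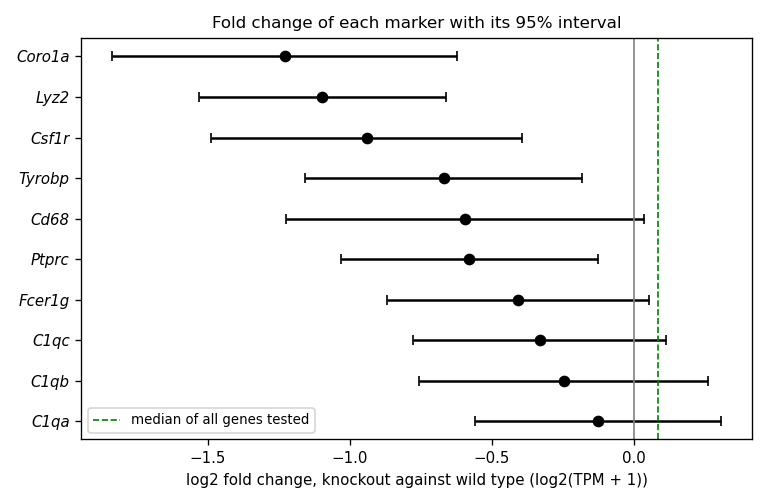
Log2 fold change of each marker, knockout against wild type, on the log2(TPM + 1) scale (x axis), with limma's 95% interval, and the median of all genes tested as a green dashed line at 0.09. The intervals of Coro1a, Lyz2, Csf1r, Tyrobp and Ptprc lie wholly under 0, and those of Cd68, Fcer1g and the C1q chains include it.

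The proportions of the chains to each other do not depend on how a library was scaled. The ratio of C1qa to C1qb was 0.812 ± 0.178 in the knockout and 0.735 ± 0.069 in wild type (SD, n = 3 each, exact two-sided permutation p = 0.6). For C1qc to C1qb it was 0.741 ± 0.202 and 0.768 ± 0.024 (exact p = 0.9). The ratio of C1qa to C1qc was 1.17, 1.12 and 1.03 in the knockout and 0.877, 1.015 and 0.979 in wild type. Those groups did not overlap, and the exact permutation p of 0.1 is the smallest that 3 against 3 allow (0.9 adjusted over 9 ratios). The differences of other complement genes were small: of 20 listed, 15 were tested and 0 passed in limma's test, 1 was lower and 0 higher at an unadjusted p of 0.05, and the median was -0.22. The anaphylatoxin receptor gene C3ar1 was that 1, at 0.323, 0.728 and 1.02 TPM against 1.43, 1.45 and 1.51 TPM (adjusted p = 0.25). Cfd, the factor D protease that fat cells make in quantity, was at -0.58 (adjusted p = 0.60).

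Because the C1q chains differed so little, the other markers were also read against C1qa within each library, a description chosen after the values were seen and given without a test. C1qa had the least negative log2 fold change of the markers, so this choice itself set the direction of the ratios. Lyz2 was 1.51, 1.37 and 1.27 times C1qa in the knockout and 2.58, 2.74 and 2.86 times C1qa in wild type. Csf1r was 0.227, 0.146 and 0.223 times C1qa in the knockout and 0.435, 0.283 and 0.406 times in wild type. Coro1a was 0.083, 0.077 and 0.153 times against 0.265, 0.267 and 0.229 times. In each of these the 3 knockout libraries lay under the 3 wild-type libraries, and so they did for Tyrobp, Ptprc and C1qc, whereas C1qb, Cd68 and Fcer1g overlapped.

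**Figure D3:**
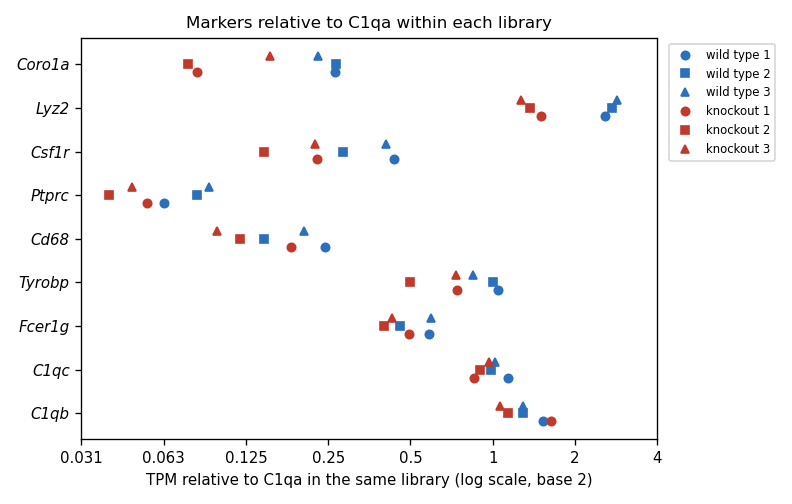
TPM of 9 markers relative to C1qa in the same library (x axis, log scale), with blue for wild type, red for knockout, and circle, square and triangle for libraries 1, 2 and 3. Lyz2 lies between 1.27 and 1.51 in the knockout and between 2.58 and 2.86 in wild type, while C1qb overlaps.

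The fixed ratios that set markers against Csf1r did not separate the groups. Lyz2 to Csf1r was 7.23 ± 1.91 in the knockout and 7.55 ± 1.94 in wild type (SD, n = 3 each, exact permutation p = 0.7). Ptprc to Csf1r was 0.241 ± 0.028 against 0.220 ± 0.074 (exact permutation p = 0.8), and Cd68 to Csf1r was 0.687 ± 0.214 against 0.525 ± 0.032 (exact permutation p = 0.4). In all of these the groups overlapped, and an exact p from 3 against 3 libraries cannot show that the ratios are equal.

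Tyrobp (DAP12) and Fcer1g (the Fc receptor gamma chain) are the adaptors that lend an ITAM to receptors such as TREM2 for the former and the activating Fc gamma receptors for the latter. Tyrobp measured 21.9, 17.6 and 22.2 TPM in the knockout against 35.4, 36.3 and 28.2 TPM in wild type. All knockout values lay under the lowest wild-type value, that of library 3, with a log2 fold change of -0.67 (SE 0.21, adjusted p = 0.21). Fcer1g measured 14.6, 14.2 and 12.9 TPM against 19.9, 16.6 and 19.8 TPM. Its groups did not overlap either, but the step was smaller, at a log2 fold change of -0.41 (SE 0.20, adjusted p = 0.36). The ratio of Tyrobp to Fcer1g was 1.499, 1.24 and 1.72 in the knockout and 1.78, 2.19 and 1.42 in wild type, with overlap (exact permutation p = 0.4).

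A list of receptors and kinases of ITAM and related signalling held values on both sides of 0. Of 21 listed, 11 were tested and 0 passed in limma's test, 1 was lower and 0 higher at an unadjusted p of 0.05, and the median log2 fold change was 0.02. Clec7a, the dectin-1 receptor for fungal glucans, which has a signalling motif of its own, was the 1, at 0.333, 0.519 and 0.482 TPM in the knockout against 1.22, 2.22 and 2.29 TPM in wild type (log2 fold change -0.99, SE 0.21, adjusted p = 0.085). Clec7a reached the 1 TPM needed for testing only in wild type. Trem2 stood at 0.771, 2.25 and 0.821 TPM against 2.22, 2.50 and 2.27 TPM, where knockout library 2 lay within the wild-type range (adjusted p = 0.33). The low-affinity Fc gamma receptors had values on the other side. Fcgr3, which signals through the gamma chain, measured 15.1, 12.1 and 10.9 TPM in the knockout against 10.5, 9.09 and 9.87 TPM in wild type, without overlap (log2 fold change 0.33, SE 0.22, adjusted p = 0.45). The inhibitory receptor gene Fcgr2b had a log2 fold change of 0.47 (SE 0.26, adjusted p = 0.40). The kinase gene Lyn stood at 9.29 ± 1.19 and 9.13 ± 1.31 TPM (SD, n = 3 each, adjusted p = 0.96).

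Cd68, a heavily glycosylated membrane protein of late endosomes and lysosomes in phagocytes, measured 5.39, 4.21 and 2.95 TPM in the knockout against 8.27, 5.28 and 6.78 TPM in wild type. Knockout library 1 lay above wild-type library 2, so the groups overlapped (log2 fold change -0.60, SE 0.27, adjusted p = 0.34). Other lysosome genes, which epithelial cells express too, were spread widely. Of 16 listed, 14 were tested and 0 passed in limma's test, with 4 lower and 1 higher at an unadjusted p of 0.05 and a median of -0.31. Ctsl, the cathepsin L protease, stood at 290.3, 188 and 57.4 TPM in the knockout against 53.2, 59.7 and 59.0 TPM in wild type (adjusted p = 0.29), so that knockout library 3 matched wild type. Cst3, the cystatin C inhibitor, had a log2 fold change of -0.83 (SE 0.23, adjusted p = 0.16).

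CD45, the product of Ptprc, is the membrane tyrosine phosphatase that sets the threshold of antigen and Fc receptor signalling, and Ptprc was the least abundant marker. It measured 1.605, 1.39 and 1.44 TPM in the knockout against 2.13, 3.001 and 3.05 TPM in wild type. The knockout libraries lay close together, and wild-type library 1 stood nearest to them. The log2 fold change was -0.58 (SE 0.19, adjusted p = 0.23). With a pseudocount of 0.1 TPM in place of 1 TPM it was -0.83 (adjusted p = 0.25), since the larger pseudocount damps the change of a gene this low. With a filter of 5 TPM it was not tested.

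Coro1a, a coronin that binds actin filaments in white blood cells, had the largest fold change of the 10. It measured 2.45, 2.70 and 4.61 TPM in the knockout against 8.99, 9.71 and 7.64 TPM in wild type. Knockout library 3 stood above the other two knockout libraries and still well below wild type. The log2 fold change was -1.23 (SE 0.26, adjusted p = 0.088). An overlap of 26 exon bases with Bola2 on the opposite strand made up 0.93% of the Coro1a exon bases. The ratio of Coro1a to Ptprc was 1.53, 1.95 and 3.21 in the knockout and 4.23, 3.23 and 2.51 in wild type (exact permutation p = 0.2).

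Coronins that are not restricted to white blood cells gave values on both sides of 0. Coro1b stood at 40.2 ± 14.1 and 48.4 ± 5.395 TPM (adjusted p = 0.56) and Coro1c at 18.6 ± 5.03 and 14.1 ± 1.59 TPM (SD, n = 3 each, adjusted p = 0.50), knockout first. Coro2a stood at 11.04 ± 2.50 and 21.5 ± 1.36 TPM (log2 fold change -0.92, SE 0.23, adjusted p = 0.12). Of the 11 listed coronin and actin genes, 10 were tested, 0 passed in limma's test, 2 were lower and 0 higher at an unadjusted p of 0.05, and the median was -0.23. The Arp2/3 subunit gene Arpc1b was at -0.70 (adjusted p = 0.23) and cofilin (Cfl1) at -0.45 (adjusted p = 0.35).

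In wild type the levels ran in the order Lyz2, C1qb, C1qc, C1qa, Tyrobp, Fcer1g, Csf1r, Coro1a, Cd68 and Ptprc. Within that order C1qc, C1qa and Tyrobp overlapped each other, as did Coro1a and Cd68, and the other neighbours were apart in all 3 libraries. In the knockout the order was Lyz2, C1qb, C1qa, C1qc, Tyrobp, Fcer1g, Csf1r, Cd68, Coro1a and Ptprc. There Lyz2 at 43.7 ± 5.07 TPM overlapped C1qb at 40.1 ± 8.27 TPM, while in wild type Lyz2 at 94.2 ± 6.13 TPM stood far above C1qb at 47.3 ± 4.395 TPM (SD, n = 3 each).

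The marker medians of the 3 knockout libraries lay close together, while those over all genes did not. As differences from wild type (its mean), the 10 markers had a median of -0.51, -0.60 and -0.58 in knockout libraries 1, 2 and 3, and all genes tested one of 0.27, 0.24 and -0.29. Relative to the middle of its own library, the set was therefore closest to the other genes in knockout library 3. In that library most genes tested were under their wild-type mean, and so were 10 of 10 markers, with Lyz2 lowest. In each of knockout libraries 1 and 2 most genes tested were above it, while 9 of 10 markers were under it, with Coro1a lowest. Without knockout library 3, 5 markers passed limma's test as lower, where 11.7% of all genes did, and their adjusted p was 0.00091 for Coro1a, 0.0016 for Lyz2, 0.0066 for Csf1r, 0.013 for Tyrobp and 0.039 for Ptprc. With array weights the same 5 passed, where 11.9% of all genes did. Without any other single library 0 of the 10 passed.

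**Figure D4:**
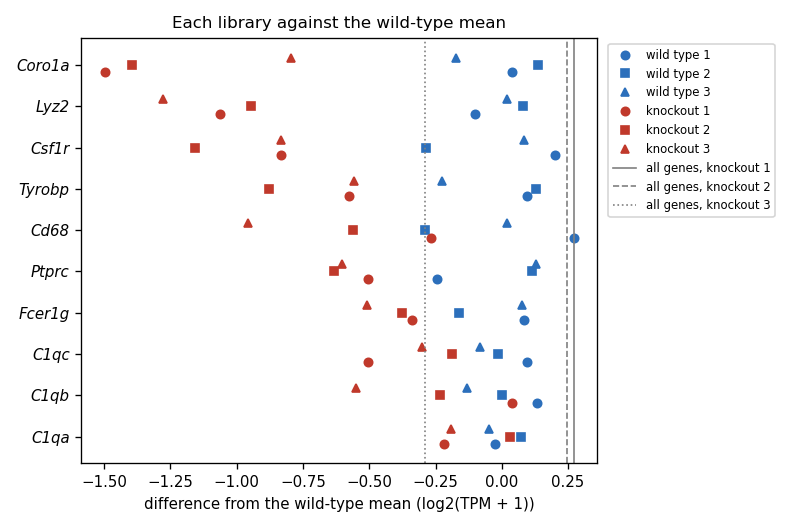
Difference of each library from the wild-type mean on the log2(TPM + 1) scale (x axis) for each marker, with blue for wild type and red for knockout, and grey lines for the median of all genes tested in each knockout library. Knockout libraries 1 and 2 lie far to the left of their lines at 0.27 and 0.24, and knockout library 3 lies nearer to its line at -0.29.

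By their pattern over the 6 libraries the markers formed no single profile. The measure was the root mean square difference between profiles of log2(TPM + 1), each centred on its own mean. C1qa and C1qc were nearest to each other of all pairs, at 0.13, and C1qb and Coro1a farthest apart, at 0.63. Csf1r was nearest to Tyrobp (0.25), Lyz2 and Coro1a were nearest to Csf1r (0.29 and 0.33), and C1qb, Cd68 and Ptprc were nearest to Fcer1g (0.18, 0.20 and 0.20). Of all other genes, 5 lay closest to the mean profile of the markers, at 0.023 to 0.060. They were Sdc3, a syndecan, Srp14 of the signal recognition particle, Pomp, a proteasome assembly factor, Med11 of the Mediator complex and the lipase gene Abhd6. None of these 5 is a white blood cell marker, and their values in the nearest, Sdc3, were 1.40, 1.37 and 1.32 TPM in the knockout against 2.75, 2.68 and 2.65 TPM in wild type (adjusted p = 0.14). Srp14 stood at 55.4 to 62.0 TPM in the knockout against 90.9 to 91.8 TPM in wild type (log2 fold change -0.62, SE 0.17, adjusted p = 0.15).

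Among further surface genes of macrophages, Cd209f fell in the knockout. Cd209f, a C-type lectin of resident macrophages, was listed at 0.228, 0 and 0.424 TPM in knockout libraries 1, 2 and 3 and at 4.49, 1.97 and 3.96 TPM in wild type. It passed limma's test (log2 fold change -1.84, SE 0.28, adjusted p = 0.049) but kept that call in only 7 of 17 alternatives. Cd209f reached the 1 TPM needed for testing only in its wild-type libraries, the group where it was higher. It was the 1 of 13 tested genes (18 listed) that passed, while 5 were lower and 1 higher at an unadjusted p of 0.05, with a median of -0.16. Aif1 (IBA1), an actin-bundling protein of macrophages, stood at 0.144, 0.397 and 2.87 TPM against 6.62, 6.17 and 4.65 TPM (adjusted p = 0.11). Cx3cr1, the fractalkine receptor, stood at 0.269, 0.130 and 1.09 TPM against 3.18, 2.67 and 2.39 TPM (adjusted p = 0.069). The gene of F4/80, listed as Emr1, was at -1.16 (SE 0.29, adjusted p = 0.12) and the perforin-like Mpeg1 at -1.11 (SE 0.28, adjusted p = 0.12).

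Other macrophage genes lay on the opposite side. The haemoglobin scavenger receptor gene Cd163 measured 7.62, 6.32 and 4.54 TPM in the knockout against 2.14, 3.06 and 4.13 TPM in wild type, without overlap (log2 fold change 0.81, SE 0.28, adjusted p = 0.24). Mrc1, the mannose receptor gene, stood at 6.21 ± 1.32 and 5.89 ± 0.76 TPM (adjusted p = 0.91), and Itgam (CD11b) at 2.09 ± 0.39 and 1.74 ± 0.11 TPM (SD, n = 3 each, adjusted p = 0.64). The most positive log2 fold change of the list was that of Mertk, a receptor for the uptake of dying cells, at 1.04 (SE 0.58, adjusted p = 0.40). Mertk measured 26.5, 21.8 and 4.36 TPM in the knockout against 6.16, 5.51 and 7.23 TPM in wild type, with knockout library 3 under all wild-type libraries. Of the 13 tested macrophage surface genes, the log2 fold change was below 0 for 8 and above 0 for 5.

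**Figure D5:**
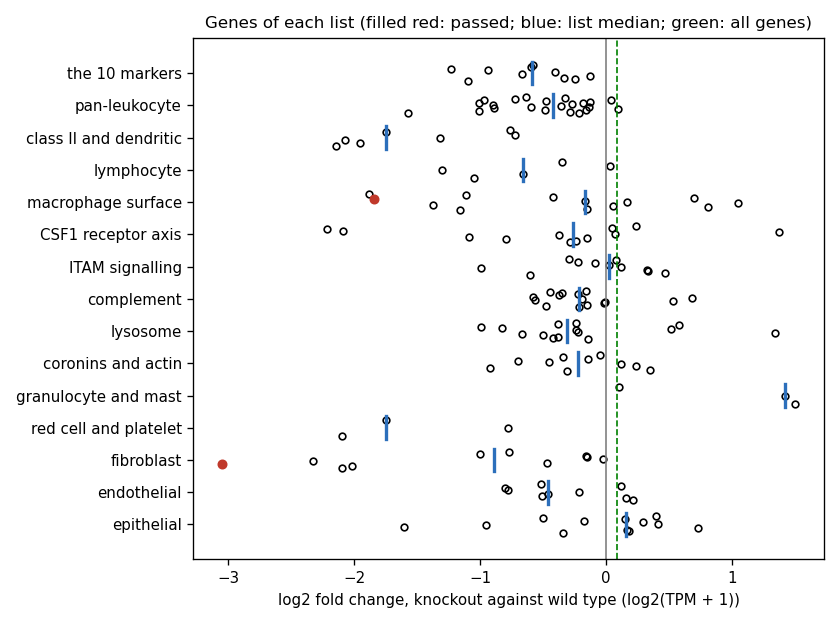
Log2 fold change on the log2(TPM + 1) scale (x axis) of every tested gene of each list, with the list median in blue, the median of all genes in green, and genes that passed limma's test filled red. The pan-leukocyte, class II and lymphocyte medians lie at -0.42, -1.75 and -0.66, and only Cd209f and Col3a1 passed among the lists drawn.

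Genes shared by most white blood cells lay mostly to the side of Ptprc and Coro1a. Of 30 listed, 22 were tested: 20 had negative and 2 positive log2 fold changes, 9 were lower and 0 higher at an unadjusted p of 0.05, 0 passed in limma's test, and the median was -0.42. Over all genes tested, 42.6% had negative values and 10.5% were lower at that p. Cd52, a small surface glycoprotein of lymphocytes and phagocytes, measured 6.03, 3.59 and 7.79 TPM in the knockout against 18.7, 17.7 and 19.4 TPM in wild type (log2 fold change -1.57, SE 0.28, adjusted p = 0.065). Cd48 was at -1.01 (SE 0.22, adjusted p = 0.092) and the actin-binding Lsp1 at -1.01 (SE 0.20, adjusted p = 0.081). Itgb2, the CD18 integrin chain of all white blood cells, stood at 1.94 ± 0.24 and 2.28 ± 0.26 TPM (SD, n = 3 each, adjusted p = 0.65). Lcp1 (L-plastin), an actin bundler of white blood cells, stood at 55.7 ± 2.84 and 52.0 ± 3.49 TPM (adjusted p = 0.78).

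Defining genes of T and B cells were scarce in all libraries, while the J chain gene of antibody-secreting cells was not. The table held 22 lymphocyte genes, of which 5 were tested, 0 passed in limma's test, 2 were lower and 0 higher at an unadjusted p of 0.05, and the median was -0.66. Cd3e did not exceed 0.190 TPM and Ms4a1 did not exceed 0.158 TPM in any library. Nkg7, of cytotoxic cells, was listed at 0, 0.342 and 0.386 TPM in the knockout against 1.71, 1.76 and 1.201 TPM in wild type (adjusted p = 0.068). Its wild-type libraries alone reached the 1 TPM needed for testing. Gzma was at -0.66 (adjusted p = 0.28). The J chain gene, listed as Igj, ranged from 6.49 to 31.8 TPM in the knockout against 20.2 to 77.8 TPM in wild type (adjusted p = 0.36).

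The 7 tested genes of antigen presentation and dendritic cells (15 listed) were all lower at an unadjusted p of 0.05, with 0 passing in limma's test and a median of -1.75. Those tested were H2-Aa, H2-Ab1, H2-Eb1, H2-DMa, H2-DMb1 and Cd74 of the class II pathway, and Cd209a. The dendritic cell genes Flt3, Zbtb46, Xcr1, Clec9a, Ccr7 and Batf3 were too low to be tested. Mean TPM was higher in the knockout for Flt3 (0.169 against 0.131) and Zbtb46 (0.676 against 0.537), and lower for the others. H2-Aa (-2.14, SE 0.35, adjusted p = 0.059), H2-Eb1 (-2.07, SE 0.45, adjusted p = 0.092) and H2-Ab1 (-1.95, SE 0.39, adjusted p = 0.077) differed most, each by more than any of the 10 markers. Of the neutrophil and mast cell genes, 3 neutrophil genes were tested and no mast cell gene was. S100a8 was listed at 2.90, 7.45 and 1.199 TPM in the knockout against 0.886, 0.697 and 0 TPM in wild type (adjusted p = 0.22), and S100a9 at 3.36, 5.70 and 1.28 TPM against 0.475, 0.420 and 0.667 TPM (adjusted p = 0.13). Cxcr2 was at 0.10 (adjusted p = 0.84), and Elane was listed at 0 throughout. The table held 15 genes of this list, and of the 3 tested (S100a8, S100a9 and Cxcr2) there were 2 higher and 0 lower at an unadjusted p of 0.05, 0 passing in limma's test and a median of 1.42. The mast cell protease genes, none of them tested, did not all lie on the same side. Mcpt4 stood at 0.499 ± 0.511 and 0.934 ± 0.917 TPM and Cma1 at 0.436 ± 0.338 and 0.679 ± 0.345 TPM, knockout first (SD, n = 3 each). In the same order Tpsb2 stood at 0.672 ± 0.636 and 0.778 ± 0.341 TPM, and Cpa3 at 0.788 ± 0.913 and 0.603 ± 0.178 TPM.

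Markers of blood and of other tissue cells were read beside the white blood cell markers, and of these only Col3a1 passed limma's test. The 8 red cell and platelet genes in the table summed to 22.7 to 64.2 TPM in the knockout against 115 to 225 TPM in wild type. Most of this was a beta globin row, listed as Beta-s, at 58.3, 31.7 and 18.4 TPM against 136, 212 and 99.9 TPM (adjusted p = 0.087), while 4 globin rows (Hba-a1, Hba-a2, Hbb-b1 and Hbb-b2) were listed at 0 in all libraries. The platelet gene Pf4 was at -1.75 (SE 0.28, adjusted p = 0.058) and the red cell gene Alas2 at -0.78 (adjusted p = 0.35), with a median of -1.75 over the 3 tested, of which 2 were lower and 0 higher at an unadjusted p of 0.05. Fibroblast genes (10 of 10 tested) had a median of -0.89 and summed to 136 to 287 TPM against 289.6 to 374 TPM, with 5 lower and 0 higher at an unadjusted p of 0.05. Of them Col3a1 fell (-3.05, SE 0.43, adjusted p = 0.044), while Lum was at -2.32 (adjusted p = 0.11) and Col1a1 at -2.09 (adjusted p = 0.073). All 10 were negative, but Pdgfra was at -0.03 (adjusted p = 0.97), Pdgfrb at -0.15 (adjusted p = 0.70) and Dpt at -0.16 (adjusted p = 0.86). Dcn, the most abundant of the list, was at -0.47 (adjusted p = 0.42), with overlapping groups. Col3a1 passed in 10 of 18 alternatives. It did not pass with a pseudocount of 0.1 or 0.5 TPM, with no filter, without knockout library 1, without each wild-type library in turn, or without knockout library 1 and wild-type libraries 1 and 2 together.

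Endothelial genes (9 of 10 tested) had a median of -0.46, 3 lower and 0 higher at an unadjusted p of 0.05 and 0 passing in limma's test, with Egfl7 at -0.80 (adjusted p = 0.18), Emcn at -0.78 (adjusted p = 0.15) and Plvap at -0.52 (adjusted p = 0.37). The log2 fold changes were negative for 6 and positive for 3 of them, the 3 being Pecam1 at 0.21 (adjusted p = 0.69), Cdh5 at 0.16 (adjusted p = 0.78) and Esam at 0.12 (adjusted p = 0.84), of which the first 2 encode junction proteins that define endothelium. Epithelial genes (12 of 12 tested) had a median of 0.16, 3 lower and 0 higher at an unadjusted p of 0.05 and 0 passing. Among them Krt19 was at -1.61 (adjusted p = 0.085), Krt7 at -0.96 (adjusted p = 0.099) and Krt18 at 0.73 (adjusted p = 0.45). In a list of genes of neighbouring salivary glands, 6 of 12 were tested and 0 passed, 0 were higher and 0 lower at an unadjusted p of 0.05, and the median was 0.09. The values of Bpifa2 and Cst10 varied widely between libraries, with overlapping groups. Bpifa2 ranged from 15.3 to 3648 TPM in the knockout and from 390 to 5152 TPM in wild type (adjusted p = 0.53), Cst10 from 0.441 to 83.9 TPM and from 15.6 to 143 TPM (adjusted p = 0.55). Amy1 was highest in knockout library 1 (1586 TPM) and wild-type library 2 (713 TPM). In knockout library 1 and wild-type library 1, Muc19 stood at 21.3 and 38.8 TPM and Smgc at 3.31 and 45.4 TPM. Both were under 1 TPM elsewhere. An alternative left these libraries out together. Prol1, although in that list, was abundant in every library, at 85790 to 144115 TPM in the knockout against 68796 to 85772 TPM in wild type, without overlap (log2 fold change 0.48, adjusted p = 0.37). The part of the blood, fibroblast and endothelial values in the white blood cell result was not tested.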

How the data were processed

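The 3 p63 knockout and 3 wild-type RNA-seq libraries were made with Illumina TruSeq RNA kits, per the labels' protocols. The authors deposited TPM per gene. The submitters' processing notes name TopHat2 2.1.1, Bowtie2 2.2.6, featureCounts 1.5.1, DESeq2 1.20.0 and mm9, without roles, and TPM keeps no read depth, so counting error is unknown. Each library summed to 1000000 TPM, and no pair of libraries was identical. Genes at 1 TPM or more in at least 3 libraries (11268 of 23366) were tested with limma 3.58.1 (R 4.3.3, trended eBayes) on log2(TPM + 1), with Benjamini-Hochberg adjustment over all of them and a threshold of 0.05. A gene could meet this filter through the wild-type group alone, as Cd209f, Clec7a and Nkg7 did. Ratios within a library were tested with an exact two-sided permutation test over 20 regroupings, whose smallest p is 0.1. The labels do not say that libraries came from separate mice or cultures, so p-values measure only the spread between these samples. In data simulated for this comparison over 11268 genes, 23 of 100 genes changed by a log2 fold of 1 and 60 of 100 changed by 2 were recovered. The text names all 10 markers, up to 3 genes a list with the largest absolute log2 fold change among those tested, the 5 genes with the nearest profile, Lyz1 and Trp63. Some genes that this rule selects are not reported here. Other named genes, and the reading against C1qa, were chosen after their values were seen. The markers and lists were chosen with earlier results of these data known. List genes were matched by symbol (234) or older RefSeq symbol (6), and 4 were not matched. Alternatives changed the pseudocount, filter, scaling, moderation and weights, added a replicate block, or left libraries out.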

Additional observations from a re-analysis of the deposited data

How the results depend on the processing

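All 10 markers kept a negative log2 fold change in the 18 alternatives run (17 for Ptprc), and C1qa, C1qb, C1qc, Cd68 and Fcer1g passed in none. The number of markers passing as lower, 0 as reported, was 1 (Lyz2) with median-of-ratios scaling and 1 (Lyz2) without the 50 most abundant genes, 5 with array weights, and 0 to 5 when single libraries were left out, 5 being without knockout library 3. The marker median was -0.70 with a pseudocount of 0.1 TPM, -0.67 with 0.5 TPM, -0.65 with median-of-ratios scaling and -0.67 to -0.49 with single libraries left out. Of all genes, 44 passed (8 higher, 36 lower), but 25 with a pseudocount of 0.1 TPM, 11 with no filter, 29 with a 5 TPM filter, 73 with median-of-ratios scaling, 72 with quantile normalization, 95 without the 50 most abundant genes, 20 without knockout library 1 and wild-type libraries 1 and 2, and 4822 (3477 higher, 1345 lower) with array weights. Leaving out single libraries gave 0 to 5127, where 5127 (3809 higher, 1318 lower) came without knockout library 3, and 0 came without wild-type library 2 or 3 (1024 and 1020 at an unadjusted p of 0.05). The cause was not tested.

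Same-numbered knockout and wild-type libraries carry neighbouring index numbers. Their deviations from the group means correlated over genes at 0.17, 0.23 and 0.077, against -0.21 to 0.032 for differently numbered libraries. Whether same-numbered libraries are pairs could not be settled, and the main fit left pairing out. With a replicate block, 31 of all genes and 0 markers passed and the marker median was -0.59. Signs reversed for Prol1 (-0.046, quantile normalization), Cfd (0.26, without knockout library 1 and wild-type libraries 1 and 2) and Cxcr2 (-0.042 to 0.37 over single libraries left out, -0.03 without knockout library 1). As log2 differences, the ratio C1qc to C1qb ran from -0.26 to 0.15, Lyz2 to Csf1r from -0.27 to 0.13 (0.09 without knockout library 3), Ptprc to Csf1r from -0.095 to 0.42, and Lyz2 to Lyz1 from -0.22 to 0.34 (-0.07 without knockout library 2, -0.04 without wild-type library 3, -0.076 with TPM + 1).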
